A study of Mus musculus with 3 samples.

Results

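Early-scored proximal tubule cells were chosen from single mouse kidney cells by the openness of their chromatin. They were barcodes with at least 3000 counts and a proximal tubule score of at least 8, the summed counts at Slc34a1, Lrp2, Slc27a2, Slc22a6, Slc22a8 and Miox, which also had to be at least 2 times the summed counts at the distal genes Slc12a1, Umod, Kcnj1 and Aqp2. They further needed an early score (Slc5a2, Slc5a12 and Slc6a19) of at least 4, and at least 2 times the late score (Slc7a13, Cyp7b1, Slc22a7, Acnat2 and Nat8). A gene's counts were those in peaks that overlapped its body or the 2 kb on either side of it. There were 1047 such cells in the 75-week-old replicate 2 and 2047 in the 3-week-old library, 3094 of 14398 barcodes in the 3 libraries. Late-scored cells, which met the same rule with the early and late sets exchanged, numbered 192 and 94.

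The assay, mtscATAC-seq, cuts open DNA with a transposase in fixed, permeabilised cells that keep their mitochondria. All kidneys were from trnE-mutant mice, whose mitochondrial DNA carries a TrnE point mutation, trnE encoding the tRNA for glutamate. Old replicate 1 was 75 weeks old at 75% mutation load, old replicate 2 was 75 weeks old at 80% load and the young library was 3 weeks old at 80% load, by their labels. The naming of the deposited data of old replicate 1 gives 80% instead, so its load is in doubt. All groups are mutant, so no comparison with unmutated kidney was made, and the animals' sex was not stated. Nothing in the labels says whether the old replicates came from different animals, so p-values reflect the scatter of these samples alone, which could be technical. Age and library cannot be told apart for the members, since the rule drew on 1 library of each age.

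The early proximal tubule, the convoluted stretch that begins at the glomerulus, takes back most filtered glucose, amino acids, bicarbonate and phosphate. Its brush border carries SGLT2 (Slc5a2), a glucose carrier of high capacity, together with the lactate carrier Slc5a12 and the neutral amino acid carrier Slc6a19. The late, straight stretch instead uses SGLT1 (Slc5a1), a glucose carrier of high affinity, the lactate carrier Slc5a8, and organic anion carriers such as Slc22a7. Open chromatin at a gene shows where transposase can reach the DNA, and is not a measure of its RNA.

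Depth differed between the libraries. The early-scored cells had a median of 21784 counts in peaks in old replicate 2 (5769 to 59108) and 33598 in the young library (4369 to 111754). Old replicate 1 had 77 barcodes that passed the rule, with a median of 27854 counts, among 5297 kept, of which 189 met the proximal gate. These 77 entered the age test as a second old sample, and are otherwise given only as shares and summed counts beside the members. No peak was called at Slc5a2 in old replicate 1. Its 77 barcodes had 582 CPM (counts scaled to a common total of counts in peaks of those cells) at the 6 proximal genes, against 57.8 CPM outside the gate. The rule chose the barcodes by these 6 genes, so that contrast is a description and says nothing on the name. Over the macrophage markers, which the rule did not use, the 77 barcodes had 139 CPM, against 642 CPM outside the gate. Other marker lists went both ways. The lists for thick ascending limb (205 against 142 CPM), podocyte (495 against 381) and distal convoluted tubule (476 against 462) were higher in the 77 barcodes. The remaining lists were lower, from endothelium (83.6 against 280 CPM) to principal cell (89.1 against 90.9). Old replicate 2 and the young library shared 32 barcode sequences, 3 of them among the members. Counts on the Y chromosome came to 223, 190 and 80.1 CPM in the early-scored cells of the first and second old replicates and the young library respectively, with no peak at Kdm5d, Uty, Ddx3y or Eif2s3y in any of them. The part of sex in the age values was not tested.

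The members' scores came mostly from 1 gene. Slc6a19 gave 69.3% of the early score of old and 70.8% of that of young members, Slc5a12 gave 18.1% and 16.9%, and Slc5a2 gave 12.6% and 12.3%. No count at Slc5a2 was found in 650 of the 1047 old members (62.1%) and in 1085 of the 2047 young members (53.0%). Slc6a19 alone carried the score in 369 old (35.2%) and 535 young members (26.1%), while all 3 genes were open in 224 (21.4%) and 657 (32.1%). The median early score was 8 in old and 12 in young members, and 25.1% and 10.4% of members sat at 4 or 5, just inside the threshold. Just outside it, 158 and 97 gate barcodes had an early score of 2 or 3 with the ratio met, and 304 and 422 met the score with a ratio between 1 and 2. These values chose the cells and are given as a description.

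The sequences of 4 promoters are shown because their openness defines or divides these cells. The promoter of Slc6a19 lay under the largest single contribution to the early score, that of Slc5a8 divides the members among themselves, and those of Slc34a1 and Miox are from the proximal gate. Each is the 250 bases before the RefSeq start site in GRCm38.p6, the assembly also known as mm10, written 5′ to 3′ on the gene's strand. Capitals mark GTTAAT, the half-site of the HNF1 homeodomain factors, on either strand (ATTAAC on the other).
Slc6a19, chr13:73692637-73692886, minus strand: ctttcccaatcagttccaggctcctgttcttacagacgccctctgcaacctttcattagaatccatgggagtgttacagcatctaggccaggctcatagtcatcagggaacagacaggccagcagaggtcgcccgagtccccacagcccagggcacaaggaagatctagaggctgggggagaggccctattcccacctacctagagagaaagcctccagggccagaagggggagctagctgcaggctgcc
Slc5a8, chr10:88885742-88885991, plus strand: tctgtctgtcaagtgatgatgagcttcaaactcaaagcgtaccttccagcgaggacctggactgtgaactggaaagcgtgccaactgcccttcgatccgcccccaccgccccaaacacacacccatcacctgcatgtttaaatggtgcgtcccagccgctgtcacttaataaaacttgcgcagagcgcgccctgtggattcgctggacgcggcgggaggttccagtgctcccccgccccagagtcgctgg
Slc34a1, chr13:55399398-55399647, plus strand: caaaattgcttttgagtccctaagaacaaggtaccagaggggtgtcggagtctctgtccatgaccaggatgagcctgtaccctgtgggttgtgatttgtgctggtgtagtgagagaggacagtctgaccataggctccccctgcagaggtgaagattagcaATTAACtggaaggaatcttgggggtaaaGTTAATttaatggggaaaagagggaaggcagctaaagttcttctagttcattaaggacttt
Miox, chr15:89334223-89334472, plus strand: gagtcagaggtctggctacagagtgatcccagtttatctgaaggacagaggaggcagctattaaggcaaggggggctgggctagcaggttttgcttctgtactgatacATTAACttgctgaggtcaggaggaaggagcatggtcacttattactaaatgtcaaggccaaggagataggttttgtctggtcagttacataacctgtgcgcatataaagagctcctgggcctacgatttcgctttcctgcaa

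The half-site GTTAAT was found at positions -89 and -61 of the Slc34a1 promoter and at -142 of the Miox promoter, counted back from the start site, and in neither of the other promoters. It occurs in 6.47% of the 32536 distinct RefSeq promoters of this length. The HNF4 letters CAAAGTCCA and CAAAGGTCA (0.387% and 0.43% of all promoters, both strands) were in none of the 4. A match is a description of the letters. The region over the Slc6a19 promoter (chr13:73692103-73693034, 68 bp from the start site at its centre) had 120 CPM in the early-scored cells of old replicate 2 and 122 CPM in those of the young library, against 26.2 and 32.6 CPM in late-scored cells. The region over the Slc5a8 promoter (chr10:88885393-88886388) had 12.3 and 18.6 CPM in early-scored and 22.4 and 46.0 CPM in late-scored cells.

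The rule genes were open in different shares of cells. At Slc5a2, 37.9% of old members (95% exact binomial interval 35.0 to 40.9) and 47.0% of young members (44.8 to 49.2) had a count. The share was 5.73% and 5.32% in late-scored cells, 18% and 20.2% in gate cells with neither score, and 0 of 16 and 2 of 35 in cells that met a distal gate of the same form. The exact interval of 0 of 16 reaches 20.6%. With each cell thinned to 10000 counts the members' shares were 29.3% and 29.4%. Slc6a19 was open in more of the other cells. It had a count in 96.4% and 98.8% of members, and also in 57.3% and 73.4% of late-scored and 62.5% and 60.0% of distal cells. The 3 rule genes had 48.1, 60.8 and 265 CPM (Slc5a2, Slc5a12, Slc6a19) in old and 46.3, 59.4 and 255 CPM in young members, log2 differences between the ages of 0.06, 0.03 and 0.06. The rule used these genes in both libraries, so all values in this paragraph are a description that says nothing on the name or on age.

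To check the name early proximal tubule, each rule gene was left out of the score that chose the cells. With Slc5a2 left out, it was still 2.11-fold (1.57 to 3.01) more open in early than in late-scored cells of old replicate 2 and 1.58-fold (1.18 to 2.17) in the young library. Slc5a12 left out was 1.51-fold (1.21 to 1.86) and 1.77-fold (1.36 to 2.32) more open. Slc6a19 left out showed 1.01-fold (0.924 to 1.11) and 1.01-fold (0.961 to 1.06), so no difference in Slc6a19 openness was detectable between cells scored without it, within intervals that span 1. These intervals cover counting error in 1 library each.

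**Figure D1:**
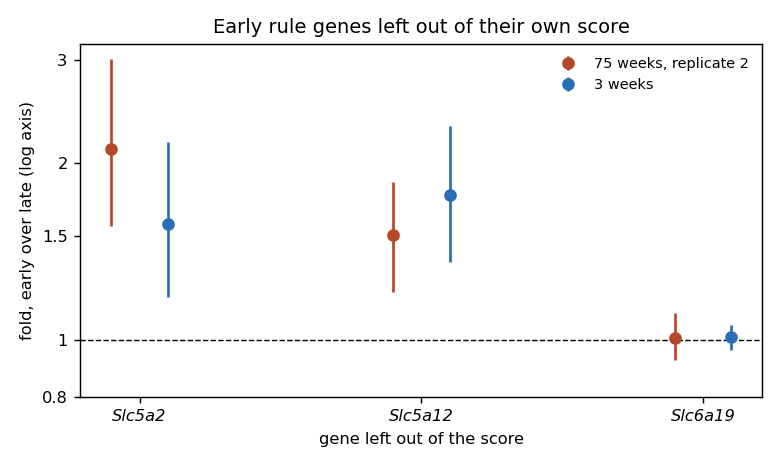
Fold of openness, early over late-scored cells (log axis), for each rule gene left out of its own score, in old replicate 2 and the young library. Bars are exact 95% intervals on fragments; Slc5a2 (2.11 and 1.58) and Slc5a12 (1.51 and 1.77) lie above 1, and Slc6a19 (1.01 and 1.01) lies on it.

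Of the 2 labelled markers outside the rule, Cdh2 (N-cadherin, an adhesion protein of proximal tubule) had 76.1 CPM in early against 55.2 in late-scored cells of old replicate 2, and 75.4 against 70.0 CPM in the young library, over each library's own peaks. Cntfr (the receptor for ciliary neurotrophic factor) had 28.2 against 27.2 and 73.5 against 55.2 CPM. Cdh2 was thus higher beyond counting error in the old library only, and Cntfr in the young library only, and neither was checked by a replicate. The data support the name in part, and the cells are called early-scored here.

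Beyond the rule genes few genes set early apart from late-scored cells. At a 2-fold difference in both libraries and at least 20 CPM, 5 of 15486 genes were higher in early-scored cells (0.0323%) and 8 lower (0.0517%). Outside the regions of the rule genes these came down to Tbx2, a T-box repressor, and Slc5a8. Tbx2 had 64.4 and 52.4 CPM in early-scored cells (old replicate 2, then young, as in all pairs below) and 30.8 and 24.2 CPM in late-scored cells, log2 differences of 1.07 (0.70 to 1.47) and 1.12 (0.60 to 1.64). Slc5a8 had 16.9 and 26.1 against 37.3 and 63.7 CPM, log2 differences of -1.14 (-1.47 to -0.69) and -1.29 (-1.57 to -0.91). The same cells' counts chose the sets, so these are descriptions with no test. Thinned cells gave Tbx2 differences of 0.22 and 0.41.

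Smaller differences ran in the direction of the segments' textbook genes for some genes only. Both libraries' intervals lay above 0 for 135 of 16196 genes (0.834%) and below 0 for 131 (0.809%). Of 17 early segment genes measured, Slc7a7 and Slc7a8, which pass amino acids out of the cell's basolateral side, were above 0 in both (log2 0.34 and 0.45 for Slc7a7, 0.33 and 0.34 for Slc7a8), and none was below. The list's median was 0.06 and 0.20 beside 0.00 and 0.01 over all genes. Of 14 late segment genes measured, 5 were below 0 in both and none above: Slc5a1 (-0.65 and -0.54), Slc5a8, the mannose and fructose carrier Slc5a10 (-0.14 and -0.19), the mitochondrial aminotransferase gene Aadat (-0.19 and -0.27) and the aspartic protease gene Napsa (-0.72 and -0.97). The late list's median was -0.10 and -0.23. From other lists the taurine carrier Slc6a6, the neutral amino acid carrier Slc43a2, the serine synthesis enzyme Phgdh and osteopontin (Spp1) lay above 0. The homeobox gene Irx3 (35.4 and 45.1 against 66.3 and 76.3 CPM), the fructose kinase Khk, Nudt19 and the prolactin receptor Prlr lay below 0.

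Single regions showed the same contrast with more detail. Of 49551 regions, 201 were at least 2-fold higher in early-scored cells in both libraries (0.406%), 191 of them outside the windows of rule genes, and 186 were lower (0.375%), 177 of them outside. Another 29 went opposite ways in the libraries. Outside the windows, only 6.38% of the higher and 4.17% of the lower regions lay within 1 kb of a start site in the RefSeq promoter table, against 23.6% of all regions measured. The promoter table is not complete, and these percentages are over fewer regions than the totals given. The region over the low-coordinate end of Tbx2 (chr11:85832113-85833297) had 41.1 and 33.7 CPM in early and 16.9 and 9.59 CPM in late-scored cells. A region inside Myrf (chr19:10235630-10236514), a membrane-bound transcription factor, had 13.5 and 14.1 against 4.29 and 1.92 CPM. A region inside the ribonuclease genes Ang and Rnase4 (chr14:51095811-51096726) had 14.7 and 10.9 against 4.03 and 2.30 CPM. One inside Dnmt1 (chr9:20931473-20932396), the maintenance DNA methyltransferase, had 7.69 and 5.25 against 1.51 and 0.77 CPM, and one inside the creatine carrier gene Slc16a12 (chr19:34708114-34708826) had 7.82 and 10.1 against 2.52 and 3.45 CPM. Higher in late-scored cells were a region inside Mgmt (chr7:137085772-137086712), a DNA repair enzyme, with 1.29 and 1.18 against 5.55 and 9.20 CPM, and a second Slc5a8 region (chr10:88888245-88889133) with 4.69 and 7.48 against 14.9 and 17.6 CPM. The late values rest on 192 and 94 cells and the lowest of them on few counts. In late-scored cells of the young library 0.77 CPM is 2 counts.

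The members were also set against each other. Those with at least 1 count at Slc5a2 or Slc5a12 (678 old and 1512 young) were compared with those whose early score came from Slc6a19 alone (369 and 535), a division chosen after the data had been seen. The first set was more open at most early segment genes and less open at Slc5a8, Slc5a1, Napsa and Irx3, in both libraries. Its median depth was 22382 and 35244 counts, against 20248 and 30462. Of 15521 genes, 575 had both libraries' intervals above 0 (3.7%), 685 had both below 0 (4.41%) and 28 had them on opposite sides.

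Among the 17 early segment genes measured 11 were higher in the first set and 2 were lower, with a median of 0.21 and 0.25 against -0.04 and -0.04 over all genes. Cdh2 had 83.4 against 54.0 CPM in old and 71.3 against 49.2 CPM in young members (log2 0.63 and 0.54), the largest of the 11. Spp2, a secreted phosphoprotein gene, had 81.2 against 58.1 and 99.5 against 75.3 CPM. The basolateral amino acid carrier Slc7a8 had 144 against 105 and 143 against 106 CPM. Slc7a7, its close relative, was at 0.37 and 0.39 on the log2 scale, and Slc7a9, the cystine carrier of the brush border, at 0.35 and 0.23. The sodium proton exchanger Slc9a3 (0.21 and 0.26) and the sodium bicarbonate carrier Slc4a4 (0.16 and 0.16), which together take back bicarbonate, were higher by less. Gatm, of creatine synthesis, Prodh2, of hydroxyproline breakdown, and the adrenergic receptor gene Adra1a were also higher. The dicarboxylate carrier Slc13a3 (-0.13 and -0.40) and the tyrosine breakdown enzyme Hpd (-0.35 and -0.47) were lower. Cntfr was higher in young members alone, with 77.9 against 45.5 CPM (log2 0.78, 0.61 to 0.92), while old members had 29.6 against 28.5 CPM (0.05, -0.28 to 0.38). The difference between the libraries was not tested.

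None of the 13 late segment genes measured was higher and 5 were lower, with a median of -0.09 and -0.18. Slc5a8 had 9.48 CPM in old members with a Slc5a2 or Slc5a12 count and 31.8 CPM in those without, and 19.7 and 47.4 CPM in young members (log2 -1.75 and -1.27). Members without such a count came close to the late-scored cells at this gene, which had 37.3 and 63.7 CPM. Slc5a1 had 35.3 against 56.1 and 49.7 against 84.5 CPM, and Napsa 19.5 against 42 and 20 against 39.4 CPM. Aadat was at -0.43 and -0.27. The value of Slc6a18 (-0.76 and -0.88) rests partly on a region that it shares with Slc6a19, which the division itself raises in the second set. The genes of the late score, on which all members were chosen to be low, did not follow Slc5a8. Over shared regions Acnat2 was higher in the first set in both libraries, at 0.60 (0.03 to 1.00) and 0.36 (0.07 to 0.65). Over each library's own peaks it was at 0.33 (-0.08 to 0.67) in old and 0.35 (0.07 to 0.65) in young members. Slc7a13 (0.47, -0.06 to 1.14, and 0.47, 0.13 to 0.76), Nat8 (0.15, -0.21 to 0.50, and 0.41, 0.09 to 0.62) and Cyp7b1 (-0.05, -0.81 to 0.78, and 0.69, 0.12 to 1.23) were higher in the young library alone, and Slc22a7 (-0.27 and -0.02) in neither. Nat8 alone of these met the minimum of 20 CPM.

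**Figure D2:**
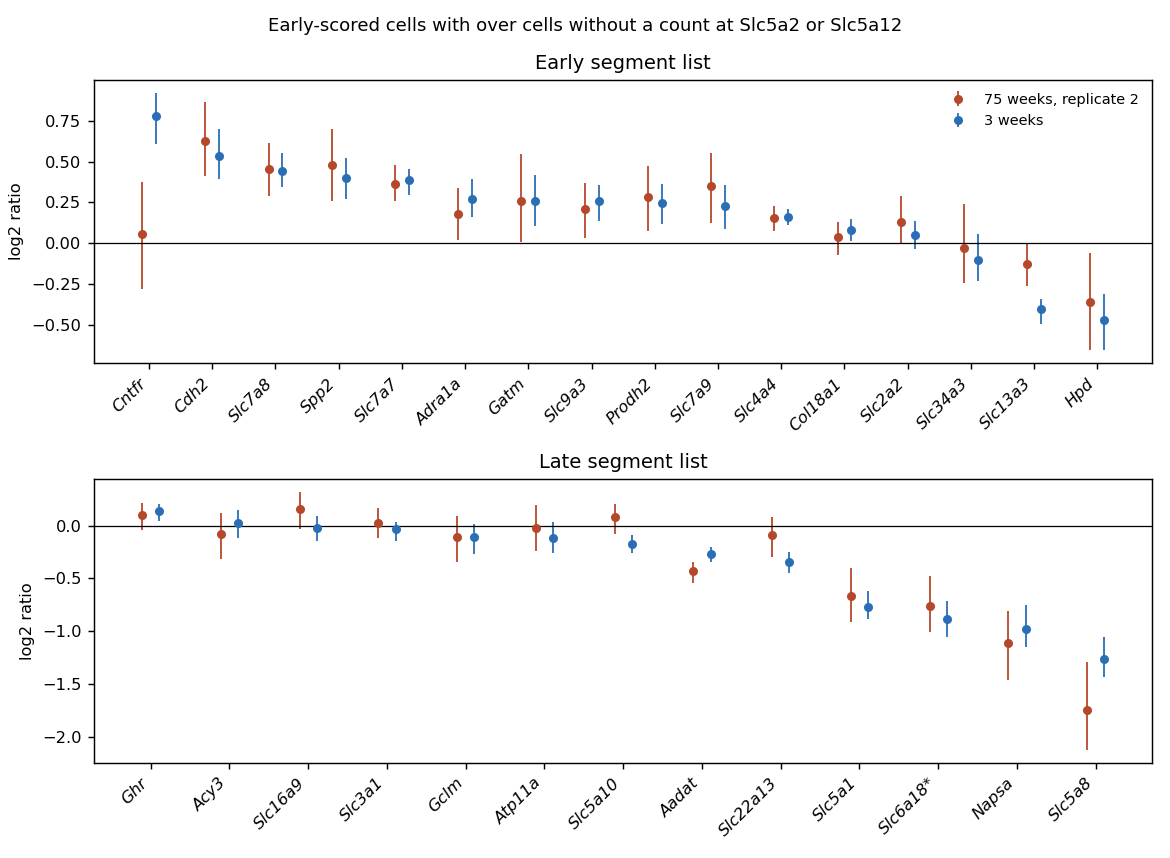
Log2 ratio of openness in members with a count at Slc5a2 or Slc5a12 over members with Slc6a19 alone, for measured early and late segment genes in old replicate 2 and the young library. Bars are exact 95% intervals on fragments and the starred Slc6a18 shares a region with a rule gene; of the 16 early genes shown 10 lie above 0 in both libraries with their intervals, and of the 13 late genes 5 lie below.

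Further genes with large differences in both libraries were picked after their values were seen, by role and not by rank. Lower in members with a Slc5a2 or Slc5a12 count were the POU factor Pou3f3 (11.7 against 35.6 and 21.0 against 50.1 CPM), its neighbour Pantr1, the potassium channel gene Kcnk1 (13.3 against 27.3 and 13.4 against 26.2 CPM), the Wnt receptor gene Ror2 and Irx3 (27.1 against 52.1 and 38.2 against 68.0 CPM). Higher were, among others, Tbx2 (73.5 against 46.3 and 60.4 against 25.7 CPM), the acetate enzyme Acss1 (125 against 72.1 and 104 against 59.7 CPM), the interferon-inducible GTPase Ifi47, the lectin-like gene Clec2h (46.3 against 26.8 and 33.8 against 21 CPM), Phgdh, and the cationic amino acid carrier Slc7a2 (46.6 against 26.3 and 42 against 28.3 CPM). Tbx2 and Irx3 went the same way between early and late-scored cells. Members with a Slc5a2 or Slc5a12 count make up most of the early-scored cells, and counts at the same rule genes cut both contrasts. The contrasts are therefore not separate observations.

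Counts by functional group are read against the 3.7% higher and 4.41% lower of all genes, and no test compared the groups. Of 17 amino acid transport genes 6 were higher (Slc7a7, Slc7a8, Slc7a9, Slc6a6, Slc16a10 and Slc43a2) and 2 lower (Slc6a18 and Slc38a3). Of 20 genes for phosphate, sodium and bicarbonate 3 were higher (Slc9a3, Slc4a4 and Cldn10) and none lower. Of 17 glucose genes Slc5a1 and Tkfc were lower and none was higher. The facilitative glucose carrier Slc2a2, which works in series with SGLT2, was at 0.13 and 0.05 with intervals that reach 0. Among 22 transcription factors measured, Esrrg was higher and Irx3 lower. No gene was past 0 in both libraries in the lists for receptor endocytosis (15 measured), mitochondrial glutamyl-tRNA and tRNA modification (13), proliferation (17) and imprinted growth genes (9). Of the macrophage markers Csf1r was lower in the first set (33.3 against 48.2 and 37.6 against 49.2 CPM), while Adgre1 and Cx3cr1 had no count in the regions shared by both libraries. The part of other cells in the division was not tested. In thinned cells 42 genes were higher and 22 lower; Slc5a8 was then at -1.95 and -1.26, Slc5a1 at -0.83 and -0.68, Cdh2 at 0.45 and 0.62 and Tbx2 at 1.01 and 1.31.

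**Figure D3:**
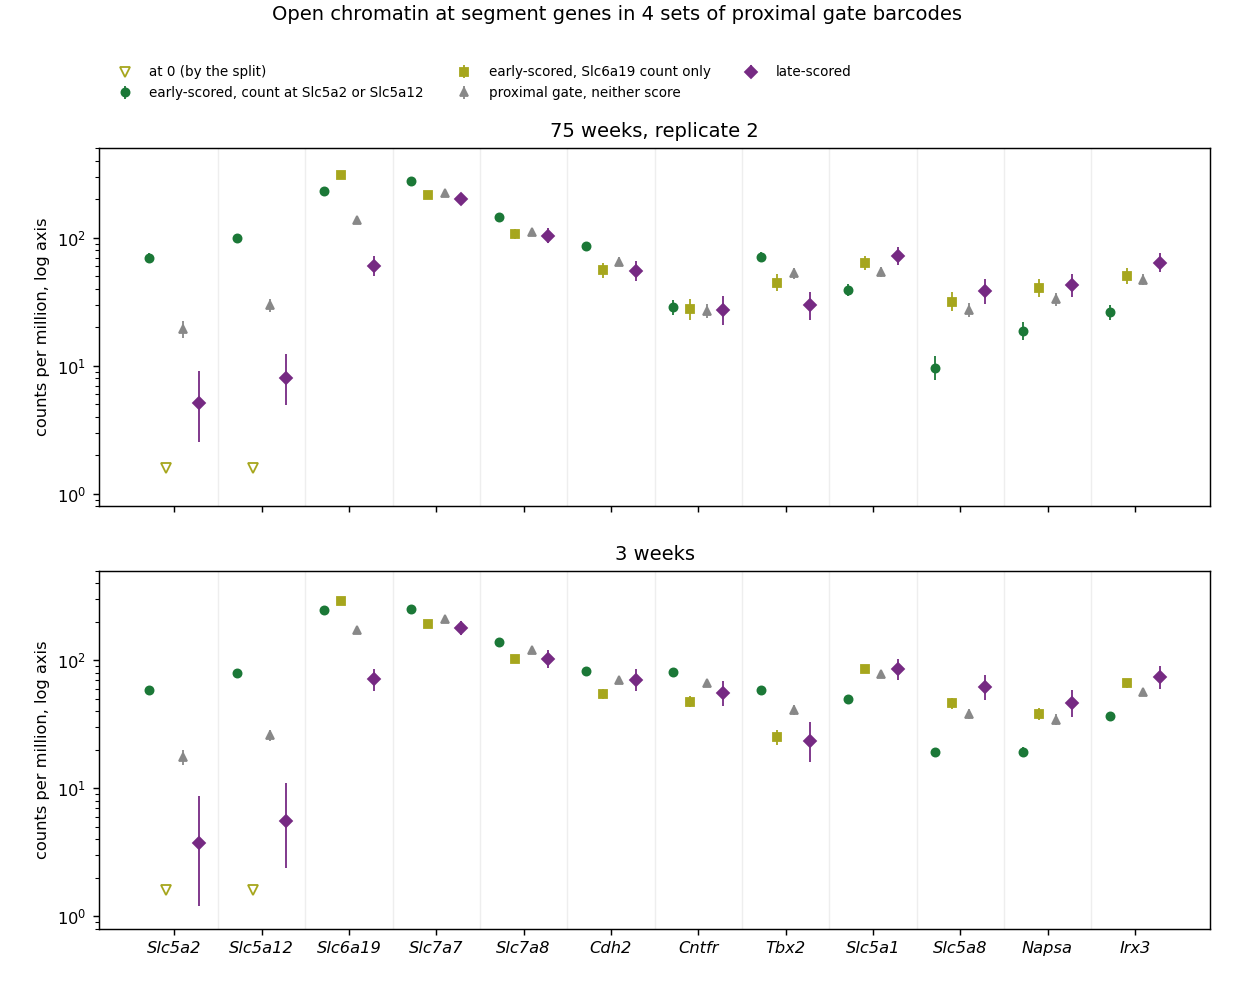
Openness at 12 segment genes in CPM (log axis) in members with a count at Slc5a2 or Slc5a12, members with Slc6a19 alone, gate cells with neither score and late-scored cells, in old replicate 2 (top) and the young library (bottom). Bars are exact 95% Poisson intervals on fragments, from each library's own peaks; at Slc5a8, Slc5a1, Napsa and Irx3 members with Slc6a19 alone lie above members with a Slc5a2 or Slc5a12 count in both libraries.

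The share of early-scored cells was lower in old replicate 2 than in the young library, by an amount that changed when depth was made equal. They made up 27.9% (95% interval 26.5 to 29.3) of 3755 kept barcodes in old replicate 2 and 53.9% (52.3 to 55.5) of 3795 in the young library. Within the proximal gate the shares were 50.5% (48.3 to 52.7) of 2073 and 70.7% (69.0 to 72.3) of 2897. With each barcode thinned to 10000 counts they were 32.9% (29.7 to 36.1) of 846 and 36.9% (34.3 to 39.5) of 1361, a smaller gap with intervals that overlapped. Of all thinned barcodes, of which 2687 and 3200 had the depth, the shares were 10.3% (9.22 to 11.6) and 15.7% (14.4 to 17.0). Old replicate 1 had 1.45% (1.15 to 1.81) of 5297, and 40.7% (33.7 to 48.1) of its 189 gate barcodes. As deposited, the share of all barcodes differed more between the old libraries than between old replicate 2 and the young library. The share of the gate differed more between old replicate 2 and the young library, but this did not hold after thinning. Old replicate 1 then had 27.3% of 44 gate barcodes, beside the 32.9% and 36.9% given above. The interval of that 27.3% takes in the shares of the other libraries, so the thinned gate shares do not rank the gaps. With 1 young library no test was made. Fewer cells of a type and less accessible DNA per cell cannot be told apart here.

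**Figure D4:**
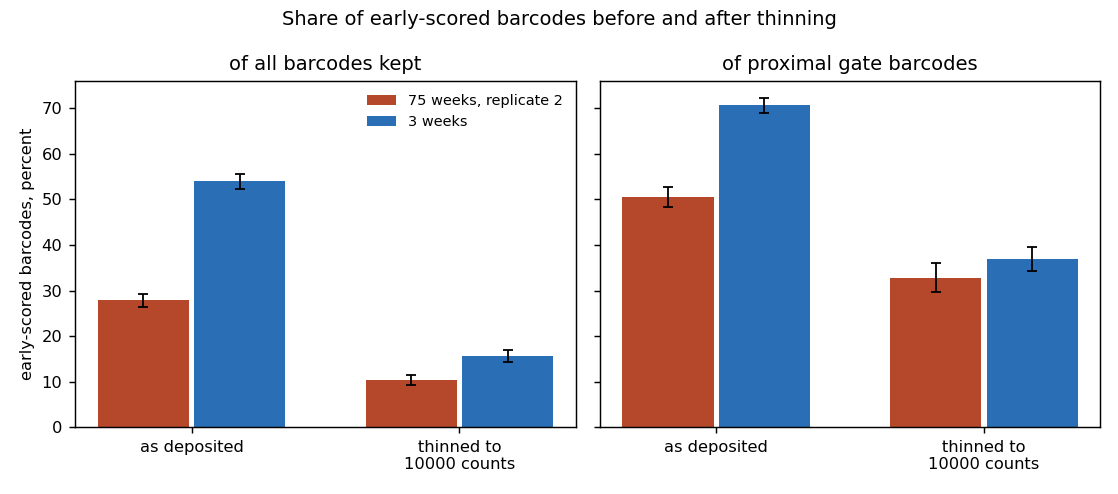
Share of early-scored barcodes in percent, of all kept barcodes (left) and of proximal gate barcodes (right), in old replicate 2 and the young library, as deposited and after thinning to 10000 counts. Bars are shares with exact 95% binomial intervals; within the gate 50.5% and 70.7% became 32.9% and 36.9%.

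Age was compared within the early-scored cells, since the study's title concerns mutations that accumulate in the kidney with age. Few genes differed by 2-fold. Histone genes of the replication-dependent clusters, the imprinted gene Peg3 and Cntfr were less open in old replicate 2, and H1f7, Rxrg, Snrpn and Tifa more open. At a 2-fold difference and at least 20 CPM, 71 of 16196 genes were higher in old replicate 2 (0.438%) and 26 lower (0.161%), and the median over all genes was -0.07. These counts compare 2 libraries and have no replicate check.

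The histone list held the most genes past 2-fold. The list went by gene name, so it held linker histones wherever they lie as well as cluster genes. Of its 45 measured genes 13 were at least 2-fold lower in old replicate 2 and 1 was higher, with a median log2 ratio of -0.39. H2bc8 had 7.26 CPM in old and 38.6 CPM in young members (log2 -2.41, -2.64 to -2.02). H2ac22 and H2bc22, which share 1 region, had 6.71 and 32.0 CPM there (chr13:21786928-21787855, log2 -2.26). H1f3, a linker histone made in S phase, had 10.4 and 31.1 CPM, and H3c6 14.0 and 41.3 CPM. Many of these genes lie back to back and share regions, so they are not separate measurements. Of 17 proliferation genes none was past 2-fold and none was above 0, with a range of -0.45 to -0.05 and a median of -0.20. Over all genes 5680 of 16196 were above 0. The higher histone gene was H1f7, a linker histone of the male germ line, whose single region (chr15:98255975-98256897) had 27.2 CPM in old and 3.65 CPM in young members (log2 2.90, 2.57 to 3.17). In late-scored cells H1f7 had 33.0 and 4.60 CPM and H2bc8 4.79 and 42.6 CPM. Early and late-scored values come from the same 2 libraries.

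Receptors and regulators came next. Rxrg, the gamma retinoid X receptor, had 49.9 CPM in old and 17.5 CPM in young members (log2 1.51, 1.35 to 1.68). Most of the difference lay in a region at an inner start site (chr1:167617764-167618691), with 24.7 and 3.01 CPM, and the next one (chr1:167620039-167620963), with 8 and 1.48 CPM. The region at its first start site (chr1:167598100-167599016) had 8.25 and 4.82 CPM. Tifa, an adaptor of innate immune signalling, had 22.5 and 7.33 CPM. Cntfr had 29.2 CPM in old and 70.4 CPM in young members (log2 -1.27, -1.41 to -1.09). The difference lay in the body of the gene: the regions chr4:41676612-41677514 (5.76 and 27.3 CPM), chr4:41658491-41659428 (6.96 and 21.1 CPM) and chr4:41664850-41665606 (1.46 and 5.92 CPM) were lower, while a region upstream of the start sites (chr4:41697159-41698050) had 8.34 and 6.96 CPM. Counted within 2 kb of its start sites alone, Cntfr was at 0.23. Kl (klotho, the co-receptor for the phosphate hormone FGF23) had 35.9 and 61 CPM (-0.76), short of 2-fold.

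Imprinted genes, which are used from 1 parental copy and are most active around birth, differed both ways. Of 9 measured, Snrpn was higher (55.1 and 19.6 CPM), and Peg3 (62.2 and 166 CPM, log2 -1.41) and Igf2bp1 (28.3 and 60.8 CPM, -1.10) were lower, with a median of -0.08 for the list. Igf2bp1 is on the list as a fetal growth gene. At Peg3 the difference lay 1783 and 2759 bp inside the gene (chr7:6728169-6729104, 26.4 and 89.1 CPM, and chr7:6727169-6728151, 15.3 and 51.7 CPM), while the region nearest the start site (chr7:6729301-6730049) had 20.5 and 24.7 CPM. Snrpn shares its regions with Snhg14, and the region with the largest difference was chr7:60351938-60352871, with 14.0 and 1.14 CPM.

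**Figure D5:**
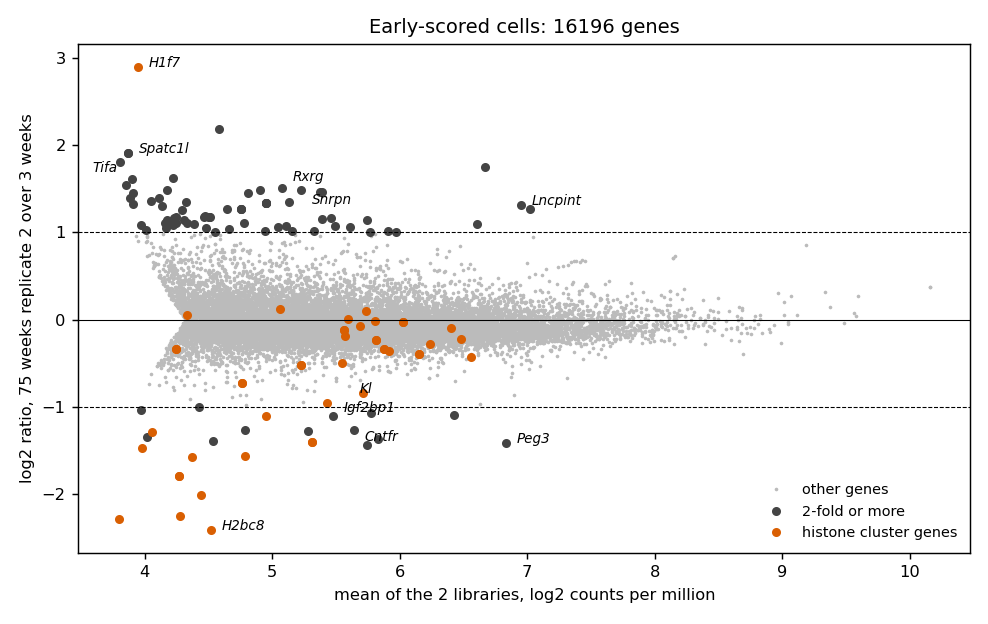
Log2 ratio of openness, old replicate 2 over the young library, in early-scored cells, against the log2 of the mean CPM, for 16196 genes. Orange points are genes of the histone list, which went by name and includes H1f7 as well as cluster genes. Dark points are other genes past 2-fold (dashed lines). Most histone points lie below 0 and H1f7 is at 2.90.

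In segment and metabolic groups few genes were past 2-fold. Of 17 early segment genes Cntfr alone was past 2-fold, with a list median of -0.07, and of 14 late segment genes the organic anion carrier Slco1a6 alone (31.7 and 14.0 CPM), with a median of -0.03. The medians were -0.21 for 17 glucose genes, 0.04 for 18 amino acid transport genes, -0.15 for 20 phosphate, sodium and bicarbonate genes, 0.07 for 17 organic ion carriers and -0.05 for 19 genes of fatty acid oxidation, with none past 2-fold. Slc5a1, the late glucose carrier, was the lowest glucose gene at -0.45. Among 23 transcription factors measured Rxrg alone was past 2-fold. Of the genes closest to the mutated tRNA, none of 13 for mitochondrial glutamyl-tRNA and tRNA modification was past 2-fold (median -0.10), with Ears2, the mitochondrial glutamyl-tRNA synthetase, at 43.5 and 46.1 CPM. None of 22 integrated stress response genes was past it either (median -0.04), with Atf4, its central factor, at 55.9 and 63.8 CPM and Ddit3 at 110 and 109 CPM. Of 11 injury genes measured none was past 2-fold, and Havcr1 and Lcn2, the usual injury markers, had no count in the shared regions. Of the marker lists for other cells, the principal cell gene Fxyd4 was past 2-fold (28.7 and 11.3 CPM). In regions shared by both libraries, 4 of 8 T cell genes (Cd3d, Cd3g, Cd8b1 and Trbc1), 2 of 7 B cell genes (Ms4a1 among them), 2 of 8 macrophage genes (Adgre1 and Cx3cr1) and 5 of 6 neutrophil genes had no count, and the others had counts. Over each library's own peaks the T cell list summed to 85.5 and 76.2 CPM in members and to 81.6 and 96.9 CPM outside the gate, and the macrophage list to 86.2 and 89.8 against 101 and 185 CPM. Their part in the results was not tested.

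A larger share of regions than of genes was past 2-fold, at unlike minimums of 5 CPM for regions and 20 CPM for genes. A gene also sums all its regions, so the shares are not on 1 scale. Of 55728 regions 2109 were at least 2-fold higher in old replicate 2 (3.78%) and 402 lower (0.721%). Of the higher regions 7.0% and of the lower ones 14.1% lay within 1 kb of a start site, against 21.7% of all measured. Here too the percentages are over fewer regions than the totals given. Among the regions with the largest ratios were one inside Alk (chr17:72448262-72449188, 29.5 and 2.70 CPM), one inside Gnao1 (chr8:93958242-93959139, 24.1 and 1.88 CPM) and one inside Aacs (chr5:125495355-125496366, 13.6 and 1.20 CPM). Late-scored cells had 23.2 and 2.68 CPM at the Alk region, 25 and 4.60 CPM at the Gnao1 region and 16.6 and 1.53 CPM at the Aacs region. Among those with the smallest was a region 52 bp from the start site of Speg (chr1:75399781-75400493, 4.04 and 19.6 CPM). Of the 71 genes higher in early-scored cells 40 were also past 2-fold in late-scored cells, and of the 26 lower genes 18, from the same libraries.

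With old replicate 1 added as a second old sample, the quasi-likelihood test of edgeR, adjusted by Benjamini-Hochberg, called 53 of 25542 genes higher (0.208%) and 24 lower (0.094%) in old early-scored cells at an adjusted p of 0.05, and 682 at an unadjusted p of 0.05. The lone young library is taken to vary as the old ones do. Of the 77, 30 were predicted genes or clones, and 17 of the 24 lower ones were histone genes. H1f7 had 38.1 and 32.0 CPM in old replicates 1 and 2 and 4.25 CPM in the young library (log2 3.02, SE 0.42, adjusted p = 1.06055e-08). H2bc8 had 9.40, 8.55 and 45 CPM (-2.35, SE 0.37, adjusted p = 8.28279e-07). Lncpint, a long noncoding RNA gene, had 187, 185 and 77.7 CPM (1.25), and Xkr4 87.2, 53.4 and 20.4 CPM (1.73). H1f7 and H2bc8 were also called by DESeq2 and by edgeR without doublets, and H2bc9 and H3c7, which share regions, by edgeR without doublets (adjusted p = 0.0453). The other lower histone genes were called by neither, with adjusted p of 0.654 (DESeq2) and 0.156 (edgeR without doublets) for H1f3, 0.388 and 0.0659 for H3c6, and 0.346 and 0.0725 for H2ac8. With the union of regions in place of shared ones neither passed edgeR's test (adjusted p = 0.717 and 1.0), and H2bc8 did not with the start site window (adjusted p = 0.0768).

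Of the list genes Rxrg (36.5, 49.3 and 18.7 CPM, adjusted p = 0.026), Snrpn (37.6, 52.2 and 18 CPM, adjusted p = 0.00836) and Cyp2a4 (7.83, 12.8 and 1.08 CPM, adjusted p = 0.0195), a cytochrome gene on the list of female-biased kidney genes, rose in edgeR's test. Peg3 fell (150, 73.2 and 193 CPM, log2 -0.86, adjusted p = 0.0201), although old replicate 1 lay nearer the young value than old replicate 2 did, with -0.36 from old replicate 1 alone and -1.40 from old replicate 2 alone. These 4 genes were not called by edgeR without doublets (adjusted p = 0.24, 0.168, 0.188 and 0.772), and DESeq2 did not call Rxrg, Snrpn or Peg3 (adjusted p = 0.948, 0.548 and 1.0). Cntfr (12, 18 and 32.7 CPM) and Kl (22.5, 29.1 and 52.3 CPM) were lower in both old samples and did not pass edgeR's test (adjusted p = 0.469 and 0.142). With the start site window Snrpn was at log2 0.06 (SE 0.86) in edgeR's fit, against 1.35 (SE 0.31) over its body and 2 kb to either side. No gene of the glucose, amino acid, fatty acid oxidation, tRNA or stress lists was called.

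Among regions, 30 of 72277 were higher (0.0415%) and 4 lower (0.00553%) by edgeR's test, with 1679 at an unadjusted p of 0.05. They include the Alk region (37.6, 34.7 CPM in the old libraries, adjusted p = 0.000816), the inner Rxrg region (18.8 and 29.1 CPM, adjusted p = 0.0146) and the H1f7 region, and among the lower ones those over H2ac8 with H2bc8 and over H2ac15 with H2bc15. The numbers of calls are not firm: without the barcodes scored as doublets 10 genes were called higher and 3 lower, and 10 regions higher and 0 lower (1554 regions at an unadjusted p of 0.05), and DESeq2 called 14 and 1 genes. Old replicate 1 contributed 77 cells, in which the 8 macrophage markers summed to 139 CPM over the 69 peaks called there. The sums of 86.2 CPM in old replicate 2 and 89.8 CPM in the young library cover 18 and 22 peaks, so the 3 are not on 1 scale. The part of other cells in the age calls was not tested.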

How the data were processed

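mtscATAC-seq was read in 3 kidney libraries as deposited tables of peaks and counts per barcode. Per the submitters' processing notes the authors used Cell Ranger ATAC 2.1.0 with mm10, and the counts in peaks were deposited raw, called separately in each library. Most values were even (94.3%, 90.9% and 89.5%), so both ends of a fragment were taken as counted and 95% intervals (exact binomial or Poisson, counting error only, since reads are not independent molecules) rest on fragments. Groups came from the labels, and 0 columns were unmapped.

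Peaks that overlapped by at least 1 bp between libraries were merged into regions, and a gene's counts were those of regions with a peak in each library compared, within its RefSeq body and 2 kb to either side. With 1 library per group a difference was called at 2-fold and at least 20 CPM (genes) or 5 CPM (regions). Members of the old libraries were summed and tested against the young library with edgeR 4.0.16 (quasi-likelihood, Benjamini-Hochberg, R 4.3.3), and DESeq2 1.42.0 was an alternative. On simulated counts for this test over 25542 genes, 98.5% of 200 genes changed 4-fold were recovered, with 10 false calls. The simulated counts were independent, with a fixed spread that was not taken from these data. They show that the code runs as meant, and not how the test performs on these libraries. Simulated doublets (0.8% per 1000 barcodes, 50 neighbours) were removed as an alternative only. Python 3.11.15 and scipy 1.17.1 were used. Genes named were those of the rule and the gene lists (by level, change or role), the 10 largest 2-fold differences each way without predicted genes and clones, and for edgeR the 10 smallest p-values each way; others are said to be chosen after their values were seen. The members, lists and tests were chosen with earlier results of these data known. The fit of age by segment was not made, since old replicate 1 had 18 late-scored barcodes, under the minimum of 20. Some genes are counted in their lists and not reported here by name.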

Additional observations from a re-analysis of the deposited data

Results flagged for a closer look

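A few genes moved in opposite directions in groups set side by side, and none of these differences was tested. Hnf4a, a regulator of proximal tubule genes, was at 0.12 (log2) in members with over without a count at Slc5a2 or Slc5a12 in old replicate 2 and at -0.12 in the young library. Echs1, an enzyme of fatty acid oxidation, was at 0.33 and -0.20 in the same comparison. Cndp2, a dipeptidase gene, was at -0.22 and 0.15. Chac1, a stress-induced enzyme that breaks down glutathione, was at -0.59 in early over late-scored cells of old replicate 2 and at 1.09 in the young library, where 94 late-scored cells carry the value. Clic5, a podocyte marker, was at -0.22 in old replicate 2 over the young library in early-scored cells and at 0.43 in late-scored cells.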

How the results depend on the processing

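No paired analysis was possible because the groups share fewer than 2 replicate numbers. Age fits with doubled minimum scores (under 20 barcodes in old replicate 1) and edgeR counts without either old library (no residual degrees of freedom) were not run. Depth limits the old replicate 1 sums (77 cells) and the late-scored values (192 and 94 cells). Causes of the changes below were not tested.

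The 53 higher and 24 lower genes of edgeR's age test became 14 and 1 with DESeq2, 1 and 0 with the union of regions (349 at an unadjusted p of 0.05), 4 and 2 with start site windows, 81 and 37 on fragments, 28 and 6 with ratios of 4, and 10 and 3 without doublets. The 30 higher regions became 83 with RLE size factors, 242 with the union, 200 on fragments, 16 with ratios of 4 and 10 without doublets. The 4 lower regions became 7, 67, 20, 0 and 0 under these (1251 and 1554 at an unadjusted p of 0.05 in the last 2), 0 with DESeq2 (764), and 1 with no filter and 1 with 5000 counts per barcode.

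The share of barcodes was, in old replicate 2 and the young library, 30.2% and 57.2% with 5000 counts, 8.55% and 35.8% with doubled minimum scores, 16.3% and 33.8% with ratios of 4, and 10.3% and 15.7% thinned. Within the gate it was 37.5% and 61.9%, 31.6% and 45.9%, and 32.9% and 36.9% under the last 3. In settings chosen after the data were seen, the shares were 7.43% and 16.8% (of the gate 13.5% and 22%) with Slc6a19 left out of the score, and 18.1% and 39.8% (32.7% and 52.2%) for members with a count at Slc5a2 or Slc5a12.

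Genes 2-fold higher in early-scored cells numbered 2 with start site windows, 18 with doubled scores, 14 with ratios of 4, 44 thinned, 2 without Slc6a19, 8 for members with a Slc5a2 or Slc5a12 count, and 10 to 33 without 1 library; those higher in late-scored cells 2 with start site windows, 38 thinned, 15 and 15 in the settings added later, and 8 to 34 without 1 library. The division of members gave 229 higher and 276 lower genes with doubled scores, 334 and 398 with ratios of 4, and 42 and 22 thinned. Between old replicate 2 and the young library 112 genes were higher and 52 lower with the union, 140 and 56 thinned, and 20 were higher with start site windows. Cntfr changed direction with start site windows, to 0.068 in edgeR's age test, 0.23 in old replicate 2 over young and -0.75 in early over late-scored young cells. Of the values of single genes under these alternatives, 702 were the same, 94 moved by more than their error and 3 changed direction. Another 66 lost a call and 1 gained one. In edgeR's fits the same meant the same direction and side of the adjusted p threshold, whatever the size of the shift. Without 1 old library it meant a value within the SE, and elsewhere a value within the main 95% interval. Of the counts of genes and regions and the shares of barcodes, 71 moved and 47 were the same.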
